A study of Mus musculus with 92 samples.

Results

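Cytosolic ribosomal protein genes were followed through 92 single bone marrow cells from the mouse strain C57BL/6 with both copies of Gfi1 replaced by Gfi1-R412X. That allele carries a premature stop codon, and Gfi1 encodes a transcriptional repressor of granulocyte development. The members were all table rows named like a cytosolic ribosomal protein gene (Rpl or Rps with a number, Rplp0, Rplp1, Rplp2 and Rpsa; pseudogene rows and the Rps6k kinases left out) and with a value above 0 in 25% or more of the cells sorted through a gate. The rule gave 81 of 23956 gene symbols, 32 of the small and 49 of the large ribosomal subunit, out of 85 names that fit. Of the cells, 47 came from the sort gate CD11b+ GMP-P and were set against 45 from the gate GMP (granulocyte-monocyte progenitor in common usage). All cells carry the genotype Gfi1-R412X/R412X and came from marrow enriched for CD117, the product of Kit, and there were 0 wild type cells to set them against. Age and number of animals are unknown here, and each gate carries its own date code, so gate, animal, capture and date cannot be told apart. Each gate was treated as 1 sample without a replicate, and no test between groups was made. An SD is the spread of cells or, where stated, of members. The deposited annotation names 9 cell states, and these names are used as it gives them.

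The ribosome is built from ribosomal RNA and one copy of most ribosomal proteins, so the genes of both subunits are usually made in near equal proportion. In mammals their messages begin with a terminal oligopyrimidine (TOP) tract, a C followed by a run of C and T, through which mTOR signalling and LARP1 set how strongly they are translated. In the bone marrow, dividing promyelocytes are rich in ribosomes and maturing neutrophils carry far fewer. The numbers below are TPM, a length-normalised share of the transcripts of a cell on a scale that sums to 1000000, and say nothing of protein or of the number of ribosomes.

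To show the tract on the genes themselves, 4 members with long pyrimidine runs at the annotated start are given, with 20 bases before and 20 after the start of transcription of the RefSeq entry on GRCm38.p6 and the longest run of C and T in capitals. Rps18 lies on the minus strand at chr17:33955646-33955685, Rpl28 on the plus strand at chr7:4792945-4792984, Rpl35 on the minus strand at chr2:39005112-39005151 and Rps6 on the minus strand at chr4:86857348-86857387.
Rps18: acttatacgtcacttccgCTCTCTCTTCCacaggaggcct
Rpl28: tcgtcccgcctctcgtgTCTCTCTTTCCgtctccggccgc
Rpl35: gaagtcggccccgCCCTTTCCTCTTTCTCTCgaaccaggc
Rps6: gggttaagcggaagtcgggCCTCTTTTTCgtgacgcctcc
A run of at least 8 pyrimidines within 20 bases of the start was present in 45.9% of the 61 members with an entry, against 15.9% of 27025 genes. In the window of 250 bases before to 50 after the start, read on both strands, the ETS core CCGGAAG was found in 39.3% of members and 9.12% of all genes, the pyrimidine core CTTTCC in 47.5% and 26.3%, and the YY1 core AAGATGG in 14.8% and 6.48%. The E box CACGTG (8.20% and 7.24%), TATAAA (9.84% and 14.2%) and CCAAT (32.8% and 37.9%) were about as frequent as elsewhere or rarer. None of these motifs contains another, though CTTTCC can lie within a pyrimidine run. These matches describe letters in a window, and no binding was measured.

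The cells differed in the number of genes above 0. A CD11b+ GMP-P cell had a median of 4143 genes above 0 (1993 to 5743) and a GMP cell 5611 (2775 to 6612). All 10 listed markers of the GMP and granulocyte lineage, among them Kit, Mpo, Elane and S100a8, passed the same 25% threshold in each gate. Of 7 monocyte markers, 3 reached that share in CD11b+ GMP-P and 7 in GMP, with a summed level of 0 to 1064 TPM (median 1.42) against 0 to 4745 TPM (median 558.6). The T and NK cell list passed with 2 of 5 genes in CD11b+ GMP-P and 1 in GMP, at summed medians of 2721 and 3408 TPM, and the B cell list with 0 and 1 of 6. Megakaryocyte genes passed in neither gate. Erythroid markers reached a sum of at most 568.6 TPM in CD11b+ GMP-P and 1132 TPM in GMP, with medians of 0 and 53.1. The defining genes Cd79a, Pax5, Cd3e and Cd3g were at 0 in every cell. What these lists add to the differences given here was not tested.

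Ribosomal protein transcripts took a smaller part of the transcriptome in CD11b+ GMP-P than in GMP, and the share stepped down from state to state. It had a median of 9.43% of TPM in CD11b+ GMP-P (0.819 to 23.2) and 17.1% in GMP (12.6 to 31.5), and 36 of the 47 CD11b+ GMP-P cells lay below the lowest GMP cell. The means were 8.52 ± 5.19% in CD11b+ GMP-P (SD, n = 47 cells) and 17.8 ± 3.34% in GMP (SD, n = 45 cells). Within CD11b+ GMP-P, the 3 Myelo-4 cells held 0.819, 0.926 and 1.14%. The 15 Myelo-2 cells held 1.05 to 5.87% (median 2.68), the 3 Myelo-1 cells 7.96, 8.64 and 9.43%, and the 20 Gran-2 cells 8.97 to 15.2% (median 11.6). Myelo-4 overlapped the low end of Myelo-2 and Myelo-1 the low end of Gran-2, while no Myelo-2 cell reached the lowest Myelo-1 or Gran-2 cell. The 4 Gran-1 cells held 12.4 to 14.5% (median 12.6), the single Mono cell 12.9% and the single Multi-Lin cell 23.2%.

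In GMP the highest shares belonged to the states cMoP and Multi-Lin. The 3 cMoP cells held 22.0, 23.1 and 31.5%, and the 5 Multi-Lin cells 19.9 to 24.7% (median 22.0). Every one of these 8 cells stood above the 24 Mono cells (14.2 to 19.1%, median 16.96), the 5 MP cells (15.9 to 19.5%, median 16.6), the 6 Gran-1 cells (14.1 to 18.1%, median 15.7) and the 2 Gran-2 cells (12.6 and 14.8%). Mono, MP and Gran-1 overlapped and were not separated. The lone Multi-Lin cell of CD11b+ GMP-P, at 23.2%, fell inside the range of the Multi-Lin cells of GMP.

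**Figure D1:**
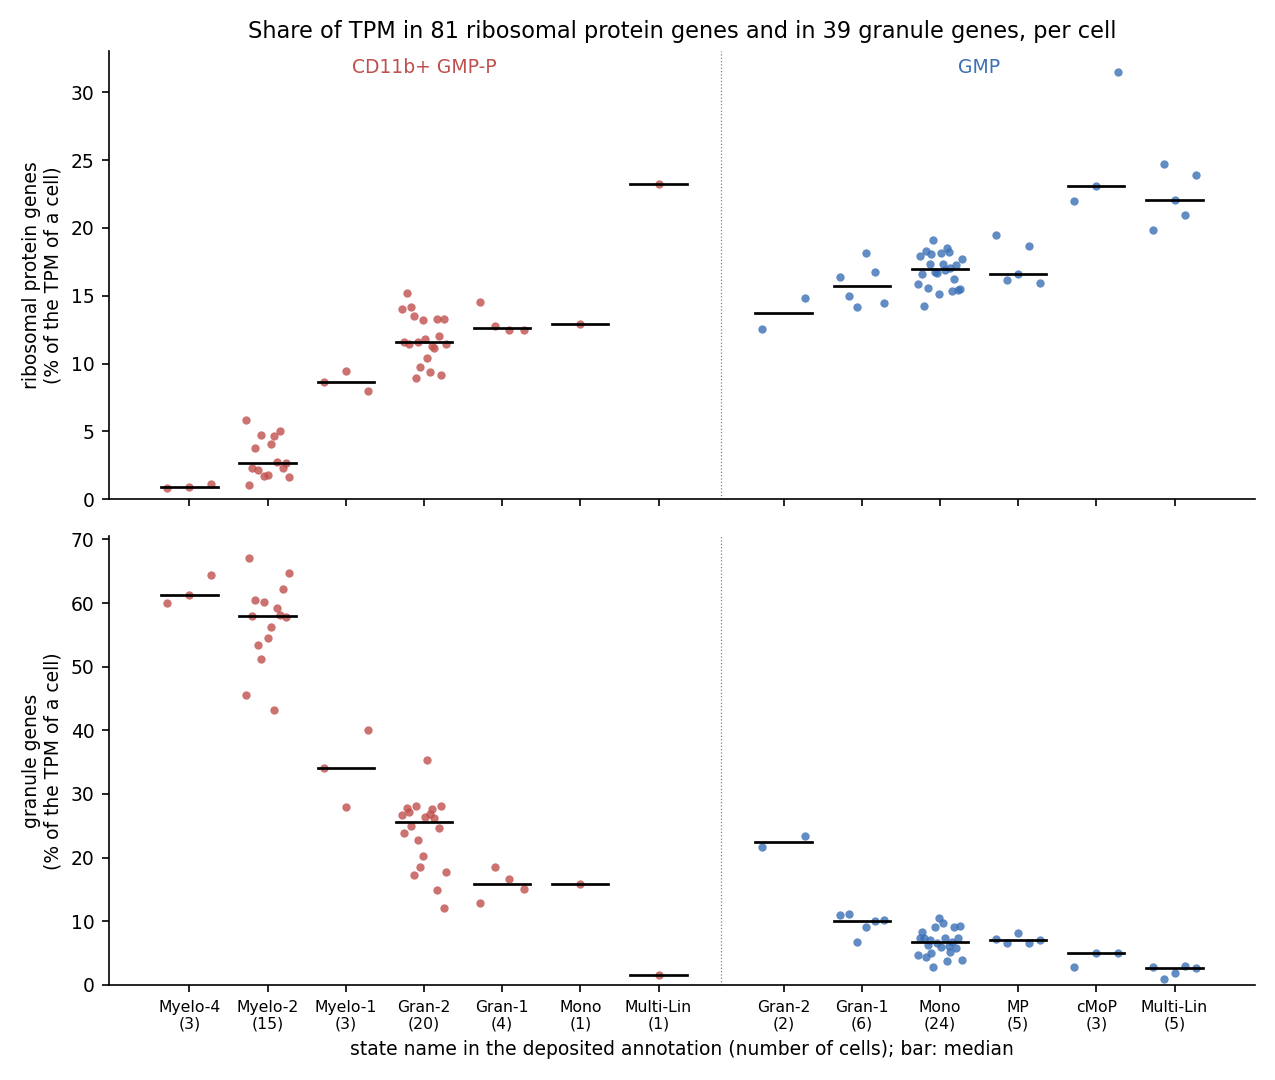
Upper panel: percent of the TPM of each cell in the 81 ribosomal protein genes. Lower panel: percent in the 39 genes of the granule lists, which include S100a8 and S100a9. Each point is 1 cell, bars are medians, and states of CD11b+ GMP-P (left) and GMP (right) follow the deposited names. Ribosomal protein shares climb from about 1% in Myelo-4 to above 19% in Multi-Lin, while granule shares run the other way.

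Because the total is fixed, a large share of one gene group leaves less for the others. The 39 genes called granule genes here include some whose proteins lie outside granules, such as the highly expressed S100a8 and S100a9. Together the 39 took a median of 27.99% of TPM in CD11b+ GMP-P and 6.77% in GMP. They took 61.3% in Myelo-4, 58.02% in Myelo-2, 34.2% in Myelo-1 and 25.6% in Gran-2, and 2.66% in GMP Multi-Lin. With granule genes left out of the total, the ribosomal protein share was 13.1% in CD11b+ GMP-P and 18.5% in GMP. It was 2.39% in Myelo-4, 6.37% in Myelo-2, 13.1% in Myelo-1, 15.6% in Gran-2 and 22.4% in GMP Multi-Lin, the same order of these 5 groups as before. Gran-1 of CD11b+ GMP-P changed places with Gran-2, with a median of 15.3%, where before it had 12.6% against 11.6%. Separations between cells given above were also lost. The highest Myelo-2 cell, at 12.07%, passed the lowest Gran-2 cell, at 12.01%. The lowest Multi-Lin cell of GMP, at 20.43%, fell below the highest MP cell, at 20.99%. From Myelo-4 to Gran-2 the genes above 0 also rose, with medians of 2192 in Myelo-4, 2936 in Myelo-2, 4428 in Myelo-1 and 4595 in Gran-2. GMP Multi-Lin went against this rise, with 3634 genes, fewer than the 5624 of GMP Mono, and yet the larger ribosomal protein share. The part of these 2 measures in the differences was not tested.

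Large subunit genes made 53.2% of the ribosomal protein TPM in Myelo-2 (44.7 to 67.9) and 55.2% in Gran-2 (52.98 to 60.3), and the median of every GMP state lay between 54.6 and 55.4%. The 3 Myelo-4 cells had 54.8, 56.4 and 67.6%. The number of members above 0 in a cell was 78 or more in all states outside Myelo-2 and Myelo-4. It had a median of 74 in Myelo-2 (54 to 79) and was 47, 49 and 59 in Myelo-4. Since these genes are used by every cell, a member at 0 is described here as listed at 0.

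Gene by gene, all 81 members had a lower mean in CD11b+ GMP-P than in GMP. The difference of mean log2(TPM + 1), CD11b+ GMP-P minus GMP, ran from -3.37 to -0.95 with a median of -2.09 (SD over members 0.48), and 80 of the 81 members were at least 2-fold lower. Of all 7803 genes compared, 39% were at least 2-fold lower and 2.72% higher, and their median was -0.74. The median was -1.97 for the small and -2.16 for the large subunit. These counts rest on the Myelo states: without them the median was -0.55, and 0 members were 2-fold lower or higher, beside 17.8 and 5.14% of 7932 genes. All 81 were then still below 0, but 77 with granule genes left out of the total and 80 with equal medians, the scaling of the next sentence. After scaling cells to equal medians of 731 widely detected genes, which moved the median of all genes to 0.48, the members stood at -0.88, 34 of them were 2-fold lower, beside 9.83% of the 7803 genes, and Rpl37a turned to 0.26.

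Besides Rpl37a, the members nearest to 0 were Rps9 (-1.23), Rpl31 (-1.43), Rps29 (-1.43), Rpl41 (-1.44), Rpl37 and Rpl35a (-1.53 each) and Rps27a (-1.54).

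**Figure D2:**
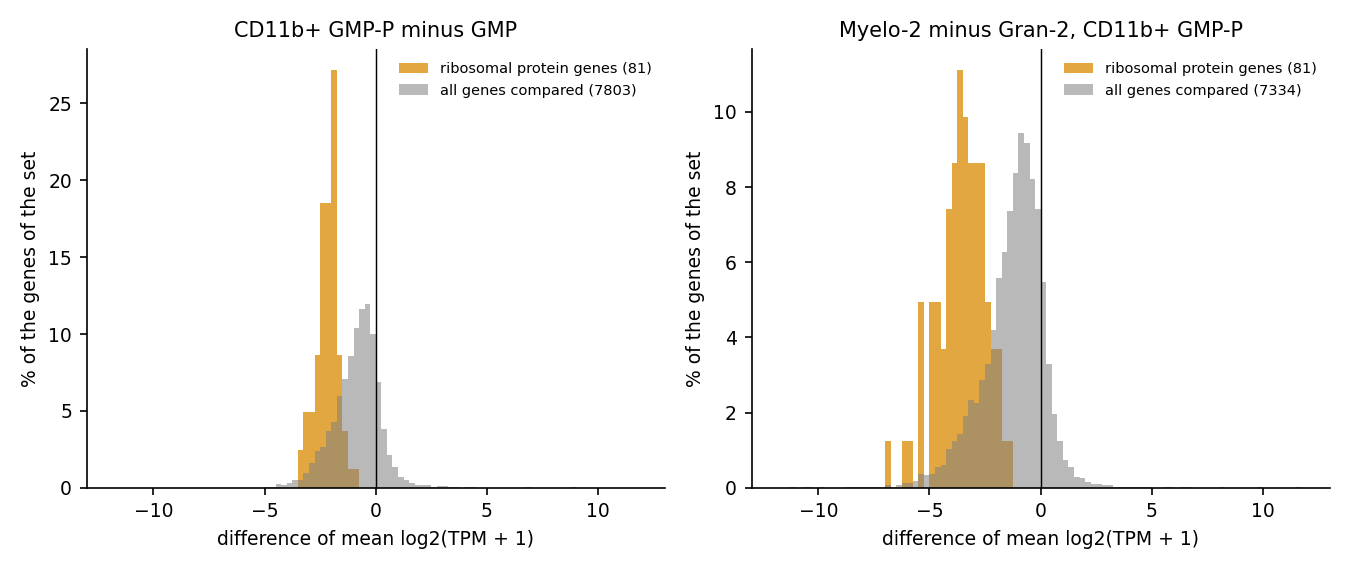
Distribution of differences of mean log2(TPM + 1) in steps of 0.25, as percent of each set, for ribosomal protein genes (orange) and all genes compared (grey). Left: CD11b+ GMP-P minus GMP, members centred at -2.09 and all genes at -0.74; right: Myelo-2 minus Gran-2, members at -3.49 and all genes at -1.04. With equal medians 1 member on the left and 12 on the right lie above 0, all below the medians of all genes, 0.48 and 1.46.

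Over all cells the highest mean levels belonged to Rpl41, which encodes the shortest protein of the ribosome, with 5277 TPM, and to Rps18, a protein of the small subunit head, with 4804 TPM. Rps19, the gene most often mutated in human Diamond-Blackfan anaemia, followed with 3693 TPM, then Rpl32, Rpl13, Rps14, Rpl9 and Rps25 with 3296, 3288, 3258, 2988 and 2890 TPM. These 8 held 22.9% of the ribosomal protein TPM in CD11b+ GMP-P and 22.4% in GMP. Spearman's rho of mean TPM over the 81 members was 0.98 between CD11b+ GMP-P and GMP and 0.88 between Myelo-2 and Gran-2, given as a description because members of a cell share its library and depth.
Rpl41 itself was listed at 20.7 to 9386 TPM (median 3645) in CD11b+ GMP-P and at 2822 to 13661 TPM (median 6895) in GMP. Rps18 was listed at 0 to 7661 TPM (median 3276) in CD11b+ GMP-P and at 2822 to 13995 TPM (median 6647) in GMP. For both genes the ranges overlapped, and CD11b+ GMP-P reached far lower.

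The contrast between Myelo-2 and Gran-2, both from CD11b+ GMP-P, was larger than that between the gates. All 81 members were at least 2-fold lower in Myelo-2, with a median difference of -3.49 (-6.85 to -1.498, SD over members 1.07), beside 51.2% of 7334 genes and a median of -1.04; 0 were higher, beside 2.62%. For 65 members the median Myelo-2 cell lay below the lowest Gran-2 cell, and for 3 members, Rpl13a, Rps27a and Rps6, no cell overlapped. These 3 were named after their values were seen. Overlap of cells was not counted over all genes, so whether 65 or 3 of 81 is unusual is not known. In all 15 Myelo-2 cells 29 members were above 0, and in all 20 Gran-2 cells 77 were, again without a count over all genes. Scaling to equal medians moved the median of all genes to 1.46. Then 69 members stayed below 0, with a median of -0.99, and 12 were above 0. These were Rpl28, Rpl31, Rpl35a, Rpl37, Rpl37a, Rpl38, Rpl41, Rplp2, Rps24, Rps25, Rps29 and Rps9. All 12 stayed below the median of all genes, the highest at 0.998. The scaling moves every gene of a comparison by the same amount, so the members' median less that of all genes stayed at -2.45.

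**Figure D3:**
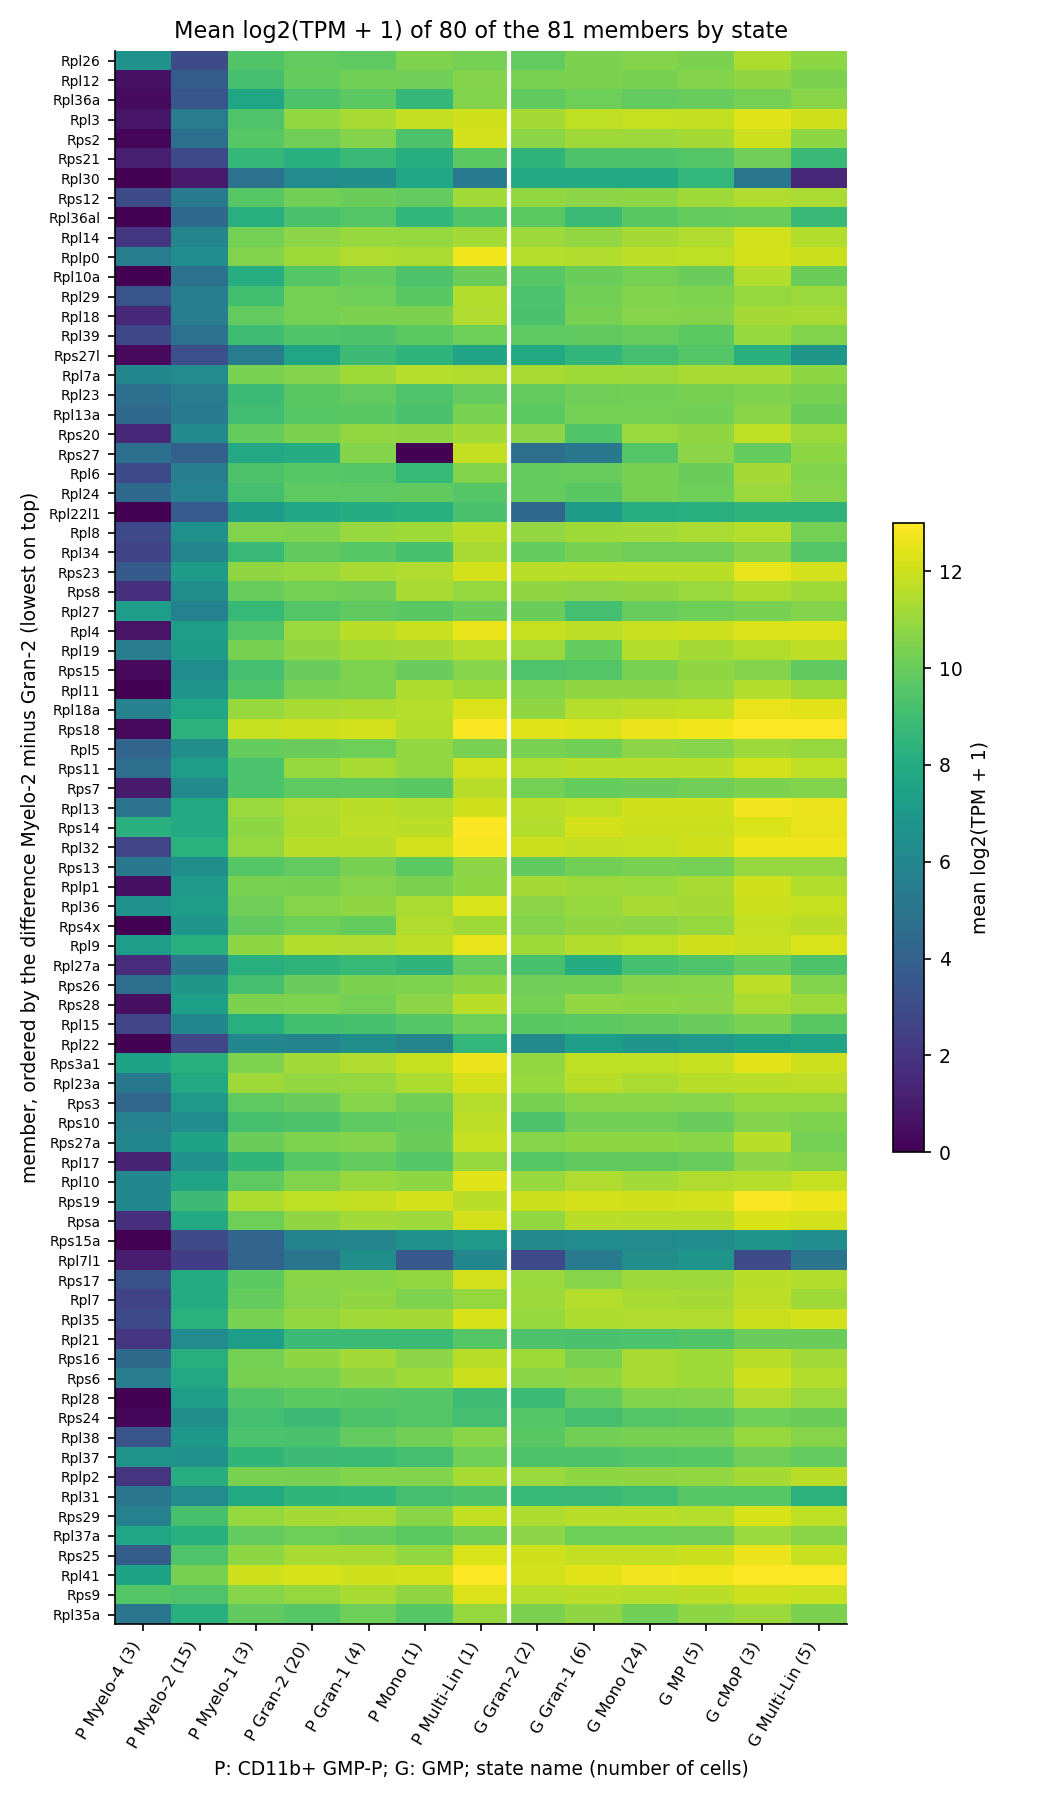
Mean log2(TPM + 1) of 80 of the 81 members (rows, ordered by the difference Myelo-2 minus Gran-2 with the lowest on top) in each state (columns; P is CD11b+ GMP-P, G is GMP, cell numbers in brackets). Levels are low in most rows of Myelo-4 and Myelo-2; Rpl30 is also low in GMP Multi-Lin and Rps27 in GMP Gran-1.

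A member was called apart from the common trend when its difference lay at least 1 log2 unit from the median of the members. In Myelo-2 against Gran-2 this held for 27 members, 16 lower still and 11 less low. How many of all genes lie as far from their own median was not counted, so the number alone does not set the members apart. The 16 were Rpl26, Rpl12, Rpl36a, Rpl3, Rps2, Rps21, Rpl30, Rps12, Rpl36al, Rpl14, Rplp0, Rpl10a, Rpl29, Rpl18, Rpl39 and Rps27l. The 11 were Rpl35a, Rps9, Rpl41, Rps25, Rpl37a, Rps29, Rpl31, Rplp2, Rpl37, Rpl38 and Rps24. Many of the first group were listed at 0 in several Myelo-2 cells, which lowers a mean of log values more than a mean of TPM. By the ratio of mean TPM, 7 of the 27 still lay apart: Rpl30, Rps21, Rplp0, Rpl26 and Rps2 lower still, and Rps9 and Rpl35a less low. Of the 27, 25 kept their side, and Rpl29 and Rps12 did not.

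Rpl26, a large subunit protein that in human cells also binds the p53 message, had the lowest difference. It was listed at 0 in 8 of 15 Myelo-2 cells, with a median of 0 and a highest value of 1078 TPM, against 148.3 to 2057 TPM (median 1048) in Gran-2, a difference of -6.85. The other 7 Myelo-2 cells were spread widely, and 3 of them lay in the Gran-2 range. Rps21, of the small subunit, was at 0 in 6 Myelo-2 cells and reached 338.3 TPM (median 8.25), against 53.3 to 940.8 TPM (median 388.9) in Gran-2, a difference of -5.34. Rps2, which lines the path where messages enter the ribosome, was listed at 0 to 916.6 TPM (median 22.5) in Myelo-2 and 153.8 to 2742 TPM (median 1421) in Gran-2, a difference of -5.37. Rplp0, the base of the stalk that recruits elongation factors, was above 0 in every cell, at 0.71 to 993.5 TPM (median 171.2) in Myelo-2 and 905.5 to 3836 TPM (median 2577) in Gran-2. Only the highest Myelo-2 cell reached the lowest Gran-2 cell, and the difference was -4.78. Rpl12, which sits beside that stalk, had a median of 2.44 TPM in Myelo-2 (0 to 1488) and 1078 TPM in Gran-2 (271.1 to 1754), a difference of -6.11. By mean TPM it did not lie apart (-0.61 from the members' median), and 3 Myelo-2 cells lay in the Gran-2 range.

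At the other end, Rps9, a small subunit protein at the message entry site, was listed at 21 to 2114 TPM (median 1240) in Myelo-2 and 946.5 to 3829 TPM (median 2077) in Gran-2. Its difference was -1.54, and 2 low Myelo-2 cells lay far below the rest. Rpl35a, another gene mutated in human Diamond-Blackfan anaemia, was listed at 1.57 to 783.4 TPM (median 608.8) in Myelo-2 and 145.6 to 2126 TPM (median 979.4) in Gran-2, a difference of -1.498. Both were above 0 in all 15 Myelo-2 cells and overlapped widely with Gran-2. Rpl37a, a zinc-binding protein of the large subunit, was the 1 member under 2-fold between the gates. It was listed at 26.1 to 2235 TPM (median 839.0) in CD11b+ GMP-P and 735.5 to 2968 TPM (median 1199) in GMP. In Myelo-2 it was listed at 26.1 to 863.1 TPM (median 398.8) and in Gran-2 at 442.9 to 2235 TPM (median 1104), a difference of -1.90.

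**Figure D4:**
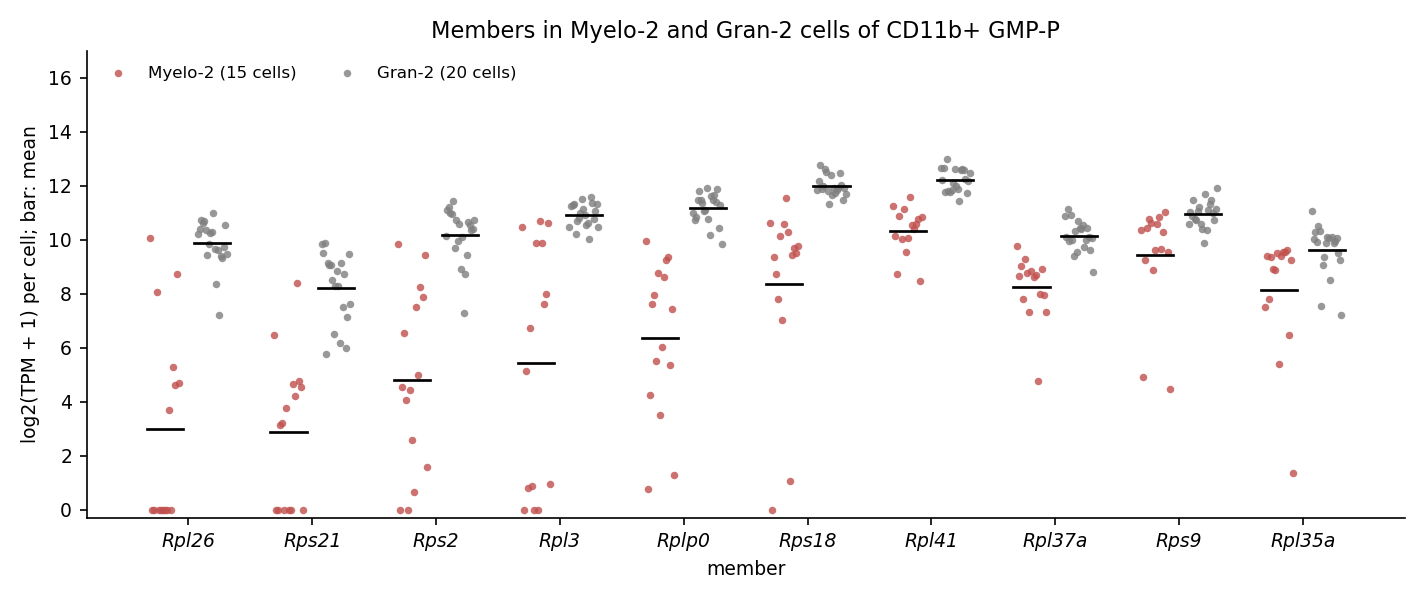
log2(TPM + 1) of 10 members in each of 15 Myelo-2 cells (red, left of each pair) and 20 Gran-2 cells (grey) of CD11b+ GMP-P, with bars at the means. Rpl26, Rps21 and Rps2 spread down to 0 in Myelo-2, while Rpl41, Rpl37a, Rps9 and Rpl35a stay above 0 in all 15 cells.

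To set the starts of these genes side by side, 3 members that were lower still and 3 that were less low are given in the same way. Rpl26 lies on the plus strand at chr11:68901546-68901585, Rps2 on the plus strand at chr17:24720043-24720082 and Rps21 on the plus strand at chr2:180257359-180257398. Rps9 lies on the plus strand at chr7:3704021-3704060, Rpl35a on the plus strand at chr16:33056433-33056472 and Rpl37a on the plus strand at chr1:72711240-72711279.
Rpl26: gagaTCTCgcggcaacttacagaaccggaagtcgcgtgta
Rps2: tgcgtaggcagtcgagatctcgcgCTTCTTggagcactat
Rps21: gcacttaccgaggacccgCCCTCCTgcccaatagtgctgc
Rps9: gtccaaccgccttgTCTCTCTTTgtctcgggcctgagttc
Rpl35a: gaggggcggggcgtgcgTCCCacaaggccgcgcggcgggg
Rpl37a: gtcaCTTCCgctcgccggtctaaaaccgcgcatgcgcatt
The longest runs held 4, 6 and 7 bases in Rpl26, Rps2 and Rps21, and 9, 4 and 5 bases in Rps9, Rpl35a and Rpl37a, so both groups held short runs. Over the 61 members with an entry, the length of the run had a Spearman's rho of -0.14 with the difference between the gates and -0.02 with that between Myelo-2 and Gran-2. Coding length, from the GENCODE annotation of GRCm38, had -0.19 and -0.18 over 81 members. It was that of the transcript with the longest coding part, which need not be the main form of the gene. The 16 members that were lower still had a median coding length of 462 bases (153 to 1209) and the 11 that were less low 330 bases (138 to 582), beside 456 bases for all members (138 to 1257). The level of a member over all cells had a rho of 0.08 with its difference between the gates and 0.12 with that between Myelo-2 and Gran-2.

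Between the gates, 6 members lay apart from the trend, again without a count over all genes. Rpl3, next to the peptidyl transferase centre, was at -3.37, Rps2 at -3.28, Rps21 at -3.19, Rpl36a at -3.18 and Rpl26 at -3.15, and Rpl37a at -0.95. Rpl12 (-3.06), Rps27l (-3.00) and Rpl30 (-2.95) came next at the low end. Rpl3 was listed at 0 to 4276 TPM (median 1556) in CD11b+ GMP-P and 2331 to 9097 TPM (median 3546) in GMP. Without the Myelo states 0 members lay apart, and by the ratio of mean TPM 0 did.

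The 3 Myelo-4 cells differed among themselves. Listed above 0 in all 3 were 29 members, and 9 were at 0 in all 3: Rpl10a, Rpl11, Rpl22, Rpl22l1, Rpl28, Rpl30, Rpl36al, Rps15a and Rps4x. Rps9 was the highest member and made 9.63% of their ribosomal protein TPM, with 314.1, 1006 and 1456 TPM in the 3 cells. Rps18, the highest member of several other states, was at 0 in 2 of them and at 0.91 TPM in the third. Rpl41 was listed at 20.7, 440.3 and 647.3 TPM. Each of these cells had at most 2319 genes above 0. How many of all genes were above 0, or at 0, in all 3 was not counted.

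Gran-1 and Gran-2 cells of CD11b+ GMP-P carried close to equal levels. The median difference of the members, Gran-2 minus Gran-1, was -0.24 with 3 of 81 at least 2-fold lower (Rps27 at -2.51, Rpl7l1 at -1.42 and Rps27l at -1.26) and 0 higher, beside 27.8 and 12.2% of 8999 genes. Between the 4 Gran-1 cells of CD11b+ GMP-P and the 6 of GMP the median was -0.24, with 1 member 2-fold lower (beside 22% of 9201 genes) and 4 higher (beside 23.6%). The member called lower was Rpl30 (-1.51) and the 4 called higher were Rps27 (5.30), Rps20 (1.40), Rpl19 (1.25) and Rpl7l1 (1.12).
Among the Gran-1 cells of GMP, cell 25 stood apart, and with 2775 genes above 0 it was the shallowest cell of its gate. Rps20 was listed there at 1.63 TPM and Rpl19 at 13.9 TPM, against 1702 to 3034 TPM and 1616 to 3064 TPM in the other 5 Gran-1 cells. Against the other GMP cells, Gran-1 had 4 members at least 2-fold lower (beside 16.5% of 8406 genes) with this cell and 1 without it, Rps27 at -3.30. Without it Rps20 stood at 0.02, Rpl19 at -0.34 and Rpl27a at -0.76. Rpl30 was the 1 member 2-fold higher in Gran-1 (1.02), beside 16.4%. For this gene the other GMP cells include those of Multi-Lin and cMoP, whose low values are given below.

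Multi-Lin cells of GMP carried the members at a slightly higher level than the other GMP cells while most other genes were lower. The median difference was 0.30 (1.51 with equal medians, which put the median of all genes at 0.43), and 61 of the 81 members lay above 0. The median of all 8218 genes compared was -0.78, and 42.9% of them were at least 2-fold lower against 2 members, Rpl30 and Rps27l. Rps4x, the X-linked form of a small subunit protein, was higher by 0.80 and Rplp2, of the stalk, by 0.78. Rps27, with 1.97, was the 1 member at least 2-fold higher (beside 9.33% of genes).
Rpl30, of the large subunit, went the other way. It was listed at 0 in 4 of the 5 Multi-Lin cells and at 158.0 TPM in the fifth, and was above 0 in 39 of the other 40 GMP cells (median 419.5 TPM), a difference of -6.30. The 3 cMoP cells were also low, with 17.9, 21.7 and 92.5 TPM, while MP cells held 197.9 to 587.4 TPM (median 517.8). The Multi-Lin cell of CD11b+ GMP-P had 40.9 TPM. In Myelo-2 it was at 0 in 13 of 15 cells, and in Gran-2 in 4 of 20. Rps27l, a paralog of Rps27 induced by p53, had a median of 299 TPM in Multi-Lin and 596.9 TPM in the other GMP cells, a difference of -2.07. It was above 0 in 4 of the 5 Multi-Lin cells, with a mean of 387.6 TPM, beside 572.6 TPM over all GMP cells. The 1 GMP cell with Rps27l at 0 was a Multi-Lin cell, and a 0 lowers a mean of log values more than a mean of TPM.

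MP and Mono cells stood close to the rest of their gate. The median difference of the members was 0.01 for MP and -0.07 for Mono, where the medians of all genes were 0.27 in each. Rps27, Rpl30 and Rpl7l1 were the 3 members at least 2-fold higher in each state, by 1.91, 1.74 and 1.18 in MP (beside 26.4% of 8359 genes) and by 1.02, 1.73 and 1.36 in Mono (beside 18.1% of 8344 genes). For Rpl30 the cells set against them include the low Multi-Lin and cMoP cells. It made 0.24% of the ribosomal protein TPM in MP and 0.29% in Mono. Its part was 0.21% over all GMP cells, 0.014% in Multi-Lin and 0.017% in cMoP. In MP and in Mono 0 members were 2-fold lower, beside 9.21% of genes in MP and 3.43% in Mono. Among the lowest were Rpl39 (-0.36) and Rpl6 (-0.25) in MP and Rpl35a (-0.48), Rps4x (-0.41) and Rpl32 (-0.37) in Mono.
Within CD11b+ GMP-P, Gran-2 stood above the other cells with a median of 2.63, and 80 members were at least 2-fold higher and 0 lower, beside 39.1 and 1.79% of 7338 genes. Rpl12 (4.44), Rpl36a (4.40) and Rpl3 (4.20) had the highest and Rps9 (0.95), Rpl35a (1.19) and Rpl37a (1.40) the lowest values. Myelo-2 stood below them with -2.78 and 81 members at least 2-fold lower and 0 higher, beside 47.6 and 2.6% of 7077 genes. These comparisons share cells with that between Myelo-2 and Gran-2.

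Some values of single members depend on how reads were divided between near identical copies. The table holds a row for Rps27rt, a retrotransposed copy, which took 47.7% of the sum with Rps27 in CD11b+ GMP-P and 45.1% in GMP. In every cell where Rps27 was listed at 0, 14 in CD11b+ GMP-P and 6 in GMP, the copy was above 0. The sum was above 0 in all 92 cells, and its difference between the gates was -1.26, against -2.38 for the Rps27 row alone, so the high and low values of Rps27 by state above are uncertain. Rpl34-ps1 took 46.6% of the sum with Rpl34 in CD11b+ GMP-P and 46.1% in GMP, and 2 copies of Rps15a took 51.5 and 51.1%. Copies of Rpl14, Rpl31, Rplp2 and Rps19 took at most 3.21%.

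Among paralogs, Rpl22l1 outweighed Rpl22. It made 79.3% of the pair in CD11b+ GMP-P, with means of 217.3 and 56.9 TPM, and 69.6% in GMP, with 315.4 and 137.9 TPM. It was the higher of the pair in 36 of 47 CD11b+ GMP-P cells and 38 of 45 GMP cells, and in neither of the 2 Gran-2 cells of GMP. Rpl36al made 48.8% of its pair with Rpl36a in CD11b+ GMP-P and 43.4% in GMP, and 28.9% in GMP Multi-Lin. Rps27l made 23 and 28.2% with Rps27, or 13.5 and 17.7% with the TPM of its copy Rps27rt added to Rps27. Rpl7l1 made 4.31 and 4.61% with Rpl7.
The 4 names left out by the rule were paralogs too. Rpl10l and Rpl39l were at 0 in every cell, and Rpl3l was above 0 in 2.13% of CD11b+ GMP-P cells and in 0 GMP cells. Rps4l, nearest to the threshold from below, was above 0 in 10.6 and 15.6% of cells. Nearest from above were Rps27, with 86.7% of GMP cells, and Rpl30, with 88.9%.

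The stalk genes differed between the gates by -2.43 for Rplp0, -2.53 for Rplp1 and -1.84 for Rplp2. Rplp2 was listed at 32.4 to 1299 TPM (median 422.4) in Myelo-2 and 310.6 to 2350 TPM (median 1296) in Gran-2, a difference of -2.23, so within this complex Rplp0 was lower still than the members and Rplp2 less low. Rpl5 and Rpl11, which bind the small 5S ribosomal RNA and, when free, the p53 regulator Mdm2, differed by -2.16 and -2.39. All 19 listed genes of human Diamond-Blackfan anaemia were lower by 2-fold or more in CD11b+ GMP-P, with a median of -1.95 (-3.15 to -1.43), near that of all members, beside 39% of all genes. These 19 are members and already counted among the 81.

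Other genes of protein synthesis, from lists that the rule did not use, also had lower means in CD11b+ GMP-P than in GMP. Among ribosomal proteins that the naming rule misses, Gnb2l1 (RACK1) differed by -2.66 and Fau by -0.74. All 6 elongation factor genes were at least 2-fold lower, among them Eef1g (-4.28), Eef1d (-3.80), Eef1b2 (-3.63) and Eef1a1 (-2.09), which carries aminoacyl-tRNA to the ribosome. Of 12 other genes with TOP messages 9 were, among them Hnrnpa1 (-4.44), Npm1 (-3.65), Eif4b (-2.97) and Pabpc1 (-2.76). Of 25 initiation factor genes 22 were, among them Eif1a (-4.41), Eif3g (-3.58), Eif3d (-2.95) and Eif3m (-2.92). Of 29 ribosome biogenesis genes 25 were, among them Nop58 (-4.18), Nhp2 (-4.03), Nop56 (-3.99) and Gnl3 (-3.96), which act in the nucleolus. Of 77 mitochondrial ribosomal protein genes, of the separate ribosome of that organelle, 70 were, with a median of -1.81.
Regulators were more mixed, with 8 of 14 lower, among them Myc (-4.31), which drives ribosome production, Cnbp (-3.27), Eif4ebp1 (-2.62) and Larp4 (-2.16). Of 10 p53 target genes 4 were lower, with the member Rps27l at -3.00, Btg2 at -2.07 and Aen at -1.49, and Gadd45a was higher by 1.18. Of 12 housekeeping genes 8 were lower, with a median of -1.13. Beside these counts stand the 39% of all genes that were lower and 2.72% that were higher. Equal medians put the median of all genes at 0.48. The medians of the regulators, the p53 targets and the housekeeping genes then turned to 0.20, 0.68 and 0.08. Those of elongation (-1.65), biogenesis (-1.504), other TOP (-1.28), initiation (-0.67) and mitochondrial ribosomal (-0.60) genes stayed below 0.

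**Figure D5:**
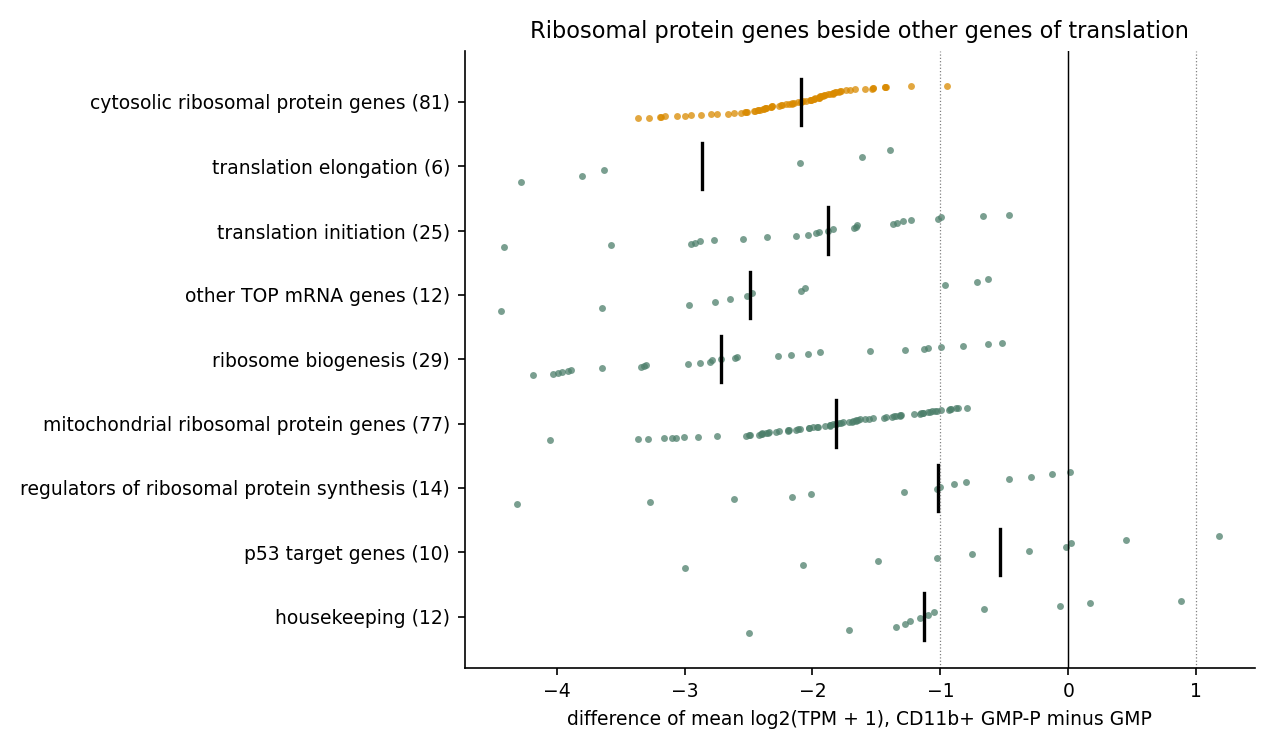
Difference of mean log2(TPM + 1), CD11b+ GMP-P minus GMP, for each gene (points) of the ribosomal protein group and of 8 other lists, with the number of genes compared in brackets, bars at the medians and dotted lines at 2-fold. Cytosolic ribosomal protein genes lie between -3.37 and -0.95, and the medians of the biogenesis and elongation lists lie further left at -2.72 and -2.86. With equal medians Rpl37a and the medians of regulators, p53 targets and housekeeping genes lie above 0, as does the median of all genes (0.48).

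Without the Myelo states ribosome biogenesis genes were still at -1.497, with 20 of 30 at least 2-fold lower, and other TOP genes at -1.03, with 7 of 12, beside 17.8% of all genes. The members were at -0.55 with 0, initiation factors at -0.63 with 7 of 25, elongation factors at -0.85 with 3 of 6 and mitochondrial ribosomal protein genes at -0.66 with 26 of 77. Between Gran-2 and Gran-1 of CD11b+ GMP-P the biogenesis list had a median of -1.44, with 20 of 29 genes at least 2-fold lower, beside 27.8% of 8999 genes. The members had -0.24 there and all genes -0.25. In GMP Multi-Lin against the other GMP cells the biogenesis list had -1.97 and the mitochondrial ribosomal list -1.88. The members had 0.30 there and all genes -0.78. No difference between lists was tested.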

How the data were processed

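Values for 92 single cells were read from the deposited table, which the authors gave as log2 values of TPM plus 1; Bowtie2, RSEM and the build mm9 are named in the submitters' processing notes, with versions not given in the sources used here. Without Ly6g, TPM summed to 1000000 to 1000001 per cell. TPM keeps no depth, so genes above 0 stand in for it. States come from the deposited annotation; columns of other samples numbered 0, pairs of identical cells 0. All cells were kept, and doublets were not called.

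Differences are between means of log2(TPM + 1) over cells (pseudocount 1); this scale understates changes of low genes. A gene was compared when above 0 in 25% or more of either group, and 2-fold means 1 log2 unit. States of at least 5 cells were set against the rest of their gate. As each gate was treated as 1 sample, no p-value was computed. The calculation was tested on simulated data. Members, lists and tests were chosen with earlier results of these data known. Named members were the 8 most abundant, the 8 highest and lowest between gates, the 6 highest and lowest of Myelo-2 minus Gran-2, all members apart from the trend, 3 highest and lowest per state, paralogs, stalk and 5S proteins, and 4 per other list. Alternatives changed the pseudocount, filter, scaling, measure, cells and members; a value counts as moved when it shifts by more than 1 SD over members or cells, a count when by more than 1.5 times. Promoter windows are from RefSeq on GRCm38.p6, a later build than mm9, and 20 members had no entry. Python 3.11.15, pandas 2.3.3 and numpy 2.4.6 were used. Values of a few single genes are not reported here.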

Additional observations from a re-analysis of the deposited data

Results flagged for a closer look

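Among the 4 Gran-1 cells of CD11b+ GMP-P, cell 79 held 14.5% of its TPM in ribosomal protein genes, set off from the other 3, at 12.4, 12.49 and 12.8%, by more than the gap rule for single high values allows. It also had the lowest granule share of the 4 (12.9%, against 15.02 to 18.6%) and the fewest genes above 0 (4499, against 5255 to 5477), and their part in the value was not tested. The gap rule was applied in 12 checks, which were 3 quantities in each of 4 states and so shared cells. In 1 of these checks a cell was set off, and chance sets off about 1 in 20. The number of members above 0 was 81 in every cell of this Gran-1 group and of MP, so those checks had no gap to find.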

How the results depend on the processing

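Over 14 summary results and 103 alternative values, 76 kept their size and 27 moved. For the Multi-Lin, MP, Mono and Gran-1 medians of GMP the SD over members exceeds the value, so even a change of sign counts as kept. The Multi-Lin value with equal medians, 1.51, is not among the 103. The MP median, 0.01 as reported, was -0.05 by mean TPM. The 2-fold lower members between the gates, 80 as reported, numbered 52 by mean TPM (beside 30.2% of genes), 34 with equal medians (9.83%), 31 in 22 cells per gate matched on genes above 0 (14.4%), 48 in cells with at least 3000 genes (25.8%) and 0 without the Myelo states (17.8%). The median difference was -1.05 by mean TPM, -1.58 with granule genes left out, -0.88 with equal medians, -0.94 in matched cells, -1.08 at 3000 genes and -0.55 without the Myelo states. Relative to all genes it was -2.07 with no filter, -0.53 by mean TPM, -0.60 at 3000 genes and -0.24 without the Myelo states. Members apart from the gate trend, 6 as reported, numbered 11 and 0 at pseudocounts of 0.1 and 10, 10 with no filter, 0 by mean TPM, 0 in matched cells, 1 at 3000 genes and 0 without the Myelo states. Myelo-2 minus Gran-2 was -1.97 by mean TPM and -0.99 with equal medians, where 12 members lay above 0, with 16 apart at a pseudocount of 10 and 7 by mean TPM. Gran-2 minus the other cells was 1.02 by mean TPM. The causes were not tested. Of 34 named members, 207 of 306 values moved and 1 lay above 0 (Rpl37a, 0.26, equal medians). Adding copies to their genes or to Rps27 beside Rps27l, leaving cell 25 out, the lists without the Myelo states or rescaled, and Multi-Lin with equal medians were chosen after seeing the data. No paired analysis was possible because the gates share no cell numbers and no test was made. TPM without depth limits what a 0 means.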
